A study of Mus musculus with 9 samples.

Results

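The goblet cell genes described here are 10 genes of the mucus-secreting lineage of the intestine: Muc2, Fcgbp, Clca1, Zg16, Tff3, Spink4, Agr2, Ern2, Spdef and Atoh1. They were chosen by name, with earlier results of these data known. Of the 10, 10 are among the 35013 gene symbols listed in both deposited tables of normalized counts. To compare cells with and without a Neurog3 history, the authors sorted epithelial cells of the small intestine of NFKO mice aged 4 to 6 weeks and sequenced their mRNA. The labelled genotype, Neurog3Cre-FoxO1 f/f; Rosa26tdtomato, combines a Cre driven by Neurog3, which removes floxed FoxO1 and switches on the red reporter tdTomato in cells with a Neurog3 history. CD24negTomato+ cells carry the reporter and lack the surface protein CD24, CD24+Tomato+ cells carry both, and Tomatoneg cells are the epithelial cells of these same mice without the reporter. There are 3 libraries of each population and 9 in all. Every population comes from mice with the Cre and the floxed alleles, so no cells of wild-type mice are in the comparison. Tomato+ and Tomatoneg cells differ both in Neurog3 history and in the removal of FoxO1 by the Cre, and these cannot be told apart here. The paper used CD24 staining to separate enteroendocrine, goblet and Paneth cells, and only the Tomato+ cells are labelled by CD24. The CD24 gate thus sorts by cell type, and its part in any difference here cannot be told apart either.

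Goblet cells make the mucus that separates the gut epithelium from the bacteria of the lumen. Muc2 forms the gel, and Fcgbp, Clca1 and Zg16 are secreted with it. Trefoil factor Tff3 and the peptide Spink4 leave the cell with the mucus granules. Agr2 and Ern2 act inside the endoplasmic reticulum, where Agr2 assists the folding of mucins and Ern2 senses misfolded protein. Atoh1 commits progenitors to the secretory lineages, and Spdef drives their maturation into goblet and Paneth cells, so both act upstream of the secreted products.

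Each Tomato+ population has its own table, and the 3 Tomatoneg libraries stand in both. Scaling was done by table, so each population was compared with Tomatoneg within its own, and both comparisons share their controls. The estimated depth was 19158348 to 39240059 reads a library, so a normalized count of 2.10 to 4.29 stood for 3 reads, which was taken as the limit of detection and covers counting error only. All 10 genes lay far above it in every library. Tomatoneg replicate 1 stood apart with 13025 genes above 0, against 15644 to 18530 in the other libraries. The targeted gene, Foxo1, read 274 to 467 in CD24negTomato+ and 424 to 695 in Tomatoneg libraries (limma adjusted P = 0.427), and 193 to 319 in CD24+Tomato+ against 444 to 748 (adjusted P = 0.0579, and 0.0219 in a fit that blocks on the replicate number). The paper reports a significant reduction of FoxO1 expression in sorted Tomato+ cells of NFKO mice. Its main text does not name the cells compared. The labels call the libraries biological replicates and do not say whether each came from another mouse, so the P values cover the spread between these libraries.

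The 10 genes were higher in both Tomato+ populations. In CD24negTomato+ cells 10 of 10 passed the test (limma on log2(normalized count + 1), Benjamini-Hochberg adjusted P under 0.05 over 13420 genes), where 0.999% of all genes tested passed as higher and 0.32% as lower. In CD24+Tomato+ cells 10 of 10 passed as well, where 8.02% of 13874 genes passed as higher and 4.89% as lower. Each of the 10 genes also had every Tomato+ library above every Tomatoneg library in both comparisons, as had 14.7% and 21.6% of all genes tested. The median log2 difference over the 10 genes was 2.75 in CD24negTomato+ and 2.499 in CD24+Tomato+ cells, beside 0.0796 and 0.160 over all genes tested. In these bulk samples, more goblet cells in a sort and more RNA of these genes per cell cannot be told apart. Without Tomatoneg replicate 1, 10 of 10 passed in both comparisons. In CD24negTomato+ cells, 134 of all genes tested passed as higher with all 6 libraries. The count of the 10 fell to 4 without CD24negTomato+ replicate 1 (18 of all genes) or replicate 2 (17). It was 6 without CD24negTomato+ replicate 3 (41) or Tomatoneg replicate 3 (99), and 8 without Tomatoneg replicate 2 (125). In CD24+Tomato+ cells 1113 of all genes passed as higher with all 6 libraries. The count there was 5 without CD24+Tomato+ replicate 2 (127) and 6 without its replicate 3 (231). It was 7 without CD24+Tomato+ replicate 1 (336), Tomatoneg replicate 2 (1076) or Tomatoneg replicate 3 (966).

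**Figure D1:**
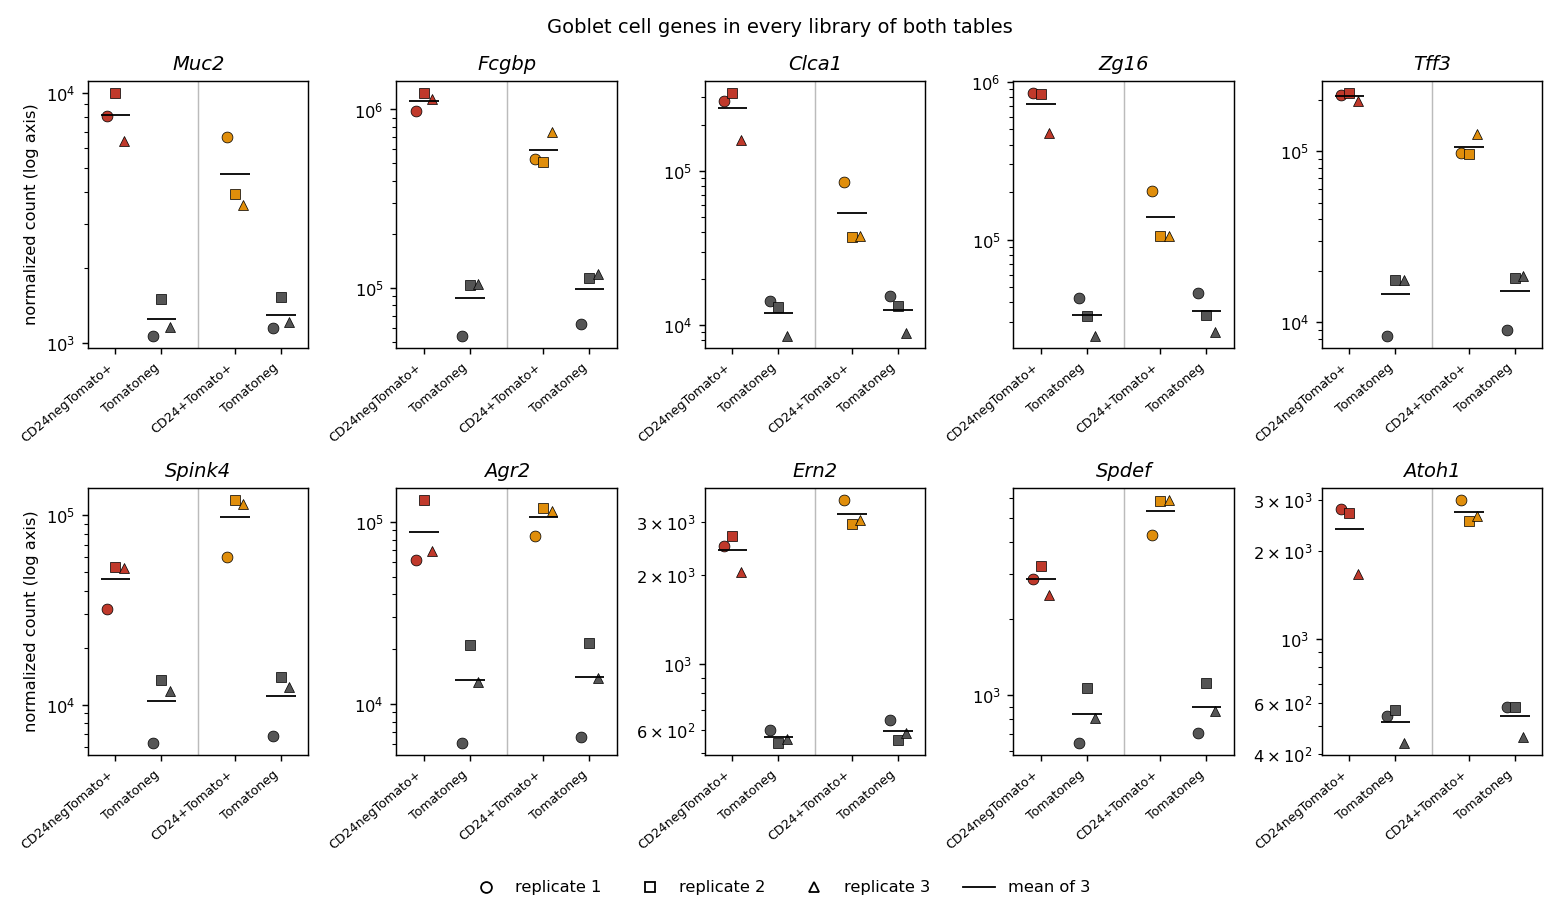
Normalized counts of the 10 goblet cell genes (log axis, its own range in each panel) in the 6 libraries of each table. Symbols mark replicates and lines the mean of 3. In every panel the 3 Tomato+ libraries lie above the 3 Tomatoneg libraries of their table.

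Among the components of the mucus gel, Muc2 encodes the gel-forming mucin itself (GENCODE M21 on GRCm38, chr7:141690340-141754693, plus strand). Values of each gene are given for replicates 1, 2 and 3 in that order, and folds are on the log2(normalized count + 1) scale. In CD24negTomato+ replicates Muc2 read 8102, 9976 and 6399 normalized counts, against 1069, 1496 and 1160.3 in Tomatoneg. The fitted rise was 6.53-fold (log2 difference 2.71 ± 0.25 (SE), limma adjusted P = 0.00602). The lowest CD24negTomato+ library lay over the highest Tomatoneg library, and replicate 2 was the highest in both populations. In CD24+Tomato+ replicates it read 6659.7, 3929 and 3566, against 1152, 1531 and 1217 in Tomatoneg of that table. This rise was 3.51-fold (log2 difference 1.81 ± 0.28 (SE), limma adjusted P = 0.00997). Here replicate 1 was the highest library and replicate 3 the lowest. The annotation marks Muc2 as a fragmented locus with 8 transcript models of 241 to 2926 bases, far shorter than the full mucin transcript. The transcript models the authors counted on are not given in the sources used here, so the level of Muc2 may be that of such pieces.

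Fcgbp encodes a large protein of the mucus gel that binds to Muc2 (chr7:28071236-28120862, plus strand). Fcgbp was at 983087, 1234309 and 1147091 normalized counts in CD24negTomato+ and at 54028, 104066 and 105769 in Tomatoneg libraries. It rose 13.3-fold (log2 difference 3.73 ± 0.49 (SE), limma adjusted P = 0.0164). The 3 CD24negTomato+ libraries lay close together, while Tomatoneg replicate 1 was low beside the other two. The CD24+Tomato+ libraries held 524782, 507575 and 747520.3 normalized counts, and the Tomatoneg libraries beside them 62496, 114348 and 119172. Here it rose 6.16-fold (log2 difference 2.62 ± 0.63 (SE), limma adjusted P = 0.0355). CD24+Tomato+ replicate 3 was the highest of its group, and the groups did not overlap. The value of Fcgbp in the same Tomatoneg libraries differed between the tables by 7.30% to 7.31% more than the median gene, so its levels in the tables are not on one scale. Its adjusted P rose to 0.0642 in CD24negTomato+ cells with no filter on low values and to 0.0596 in CD24+Tomato+ cells with a pseudocount of 0.1 (over all alternatives 0.00179 to 0.114 and 0.00293 to 0.132).

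Clca1 encodes a secreted metalloprotease that cleaves Muc2 in the mucus (chr3:145003817-145032776, minus strand). Normalized counts of Clca1 were 285955, 319731 and 159733 in CD24negTomato+ and 14311, 13076 and 8558 in Tomatoneg libraries. Its level was 20.9-fold higher in CD24negTomato+ cells (log2 difference 4.38 ± 0.38 (SE), limma adjusted P = 0.00571). Replicate 3 was the lowest library in CD24negTomato+ and in Tomatoneg cells. For CD24+Tomato+ cells Clca1 was at 85423, 37077 and 38022, with 15411, 13376 and 8976 in Tomatoneg of that table. The level was 4.02-fold higher (log2 difference 2.01 ± 0.41 (SE), limma adjusted P = 0.0226). CD24+Tomato+ replicate 1 stood well above replicates 2 and 3, which were nearly alike.

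Zg16 encodes a small lectin of the mucus that binds the wall of Gram-positive bacteria (chr7:127050156-127087328, minus strand). In CD24negTomato+ replicates Zg16 read 849360.1, 837929 and 472290.5 normalized counts, against 42398, 32537 and 24563 in Tomatoneg. The fitted rise was 21.5-fold (log2 difference 4.43 ± 0.43 (SE), limma adjusted P = 0.00685). It rose with the largest fitted fold of the 10 genes in this comparison, and replicate 3 was again the lowest library of both groups. In CD24+Tomato+ replicates it read 204634, 105445 and 104682, against 45858, 33429.7 and 25877 in Tomatoneg of that table. This rise was 3.85-fold (log2 difference 1.94 ± 0.44 (SE), limma adjusted P = 0.0308). As for Clca1, CD24+Tomato+ replicate 1 was the highest, and 8 of the 10 genes had a larger fold than Zg16 here. Quantile normalization moved its adjusted P in CD24+Tomato+ cells to 0.0806 (over all alternatives 0.0016 to 0.112).

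Of the secreted peptides, Tff3 encodes intestinal trefoil factor, which aids repair of the epithelium (chr17:31125306-31129646, minus strand). Tff3 was at 213120.5, 219212 and 196861 normalized counts in CD24negTomato+ and at 8361, 17677 and 17746 in Tomatoneg libraries. It rose 15.2-fold (log2 difference 3.93 ± 0.37 (SE), limma adjusted P = 0.00602). The CD24negTomato+ libraries differed little from each other, and Tomatoneg replicate 1 was the lowest library, as for Fcgbp. The CD24+Tomato+ libraries held 97431, 96016 and 126996 normalized counts, and the Tomatoneg libraries beside them 9069, 18214 and 18749.7. Here it rose 7.27-fold (log2 difference 2.86 ± 0.38 (SE), limma adjusted P = 0.00700). CD24+Tomato+ replicate 3 was the highest and replicates 1 and 2 were close.

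Spink4 encodes a secreted peptide of the Kazal type of protease inhibitors (chr4:40920052-40931395, plus strand). Normalized counts of Spink4 were 31969, 53063 and 52690.2 in CD24negTomato+ and 6276, 13521 and 11745 in Tomatoneg libraries. Its level was 4.48-fold higher in CD24negTomato+ cells (log2 difference 2.16 ± 0.37 (SE), limma adjusted P = 0.0429). Replicate 1 was the lowest library of both groups. For CD24+Tomato+ cells Spink4 was at 60402, 119939 and 115199.9, with 6822, 13962 and 12436 in Tomatoneg of that table. The level was 8.9-fold higher (log2 difference 3.15 ± 0.42 (SE), limma adjusted P = 0.00676). CD24+Tomato+ replicates 2 and 3 lay above replicate 1, and this was the largest fold of the 10 genes in that comparison. Its CD24negTomato+ adjusted P was above 0.05 in 4 of 9 alternative settings on all 6 libraries, up to 0.0700 without the variance trend (over all alternatives 0.0019 to 0.226).

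Inside the endoplasmic reticulum, Agr2 encodes a disulfide isomerase needed for mucin folding (chr12:35992907-36004087, plus strand). In CD24negTomato+ replicates Agr2 read 61867, 131255 and 69261 normalized counts, against 6107, 21034 and 13213 in Tomatoneg. The fitted rise was 6.92-fold (log2 difference 2.79 ± 0.50 (SE), limma adjusted P = 0.0494). The Tomatoneg libraries spread more for Agr2 than for the other 9 genes, with replicate 1 the lowest and replicate 2 the highest in both groups. In CD24+Tomato+ replicates it read 83660.5, 119802 and 115106, against 6599, 21589 and 13906 in Tomatoneg of that table. This rise was 8.35-fold (log2 difference 3.06 ± 0.47 (SE), limma adjusted P = 0.00974). The 3 CD24+Tomato+ libraries lay closer together than the CD24negTomato+ libraries. The CD24negTomato+ value stood just under the threshold, and was above it in 4 of 9 alternative settings on all 6 libraries, up to 0.078 (over all alternatives 0.00315 to 0.227).

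Ern2 encodes the form of the stress sensor IRE1 found in mucous epithelia (chr7:122169893-122186207, minus strand). Ern2 was at 2494, 2696 and 2043 normalized counts in CD24negTomato+ and at 601, 542 and 557 in Tomatoneg libraries. It rose 4.22-fold (log2 difference 2.08 ± 0.22 (SE), limma adjusted P = 0.00938). Its Tomatoneg libraries differed by less than those of any other of the 10 genes, so a moderate fold stood far outside the spread. The CD24+Tomato+ libraries held 3553, 2967 and 3041 normalized counts, and the Tomatoneg libraries beside them 648, 555 and 584. Here it rose 5.34-fold (log2 difference 2.42 ± 0.20 (SE), limma adjusted P = 0.00152). CD24+Tomato+ replicate 1 was the highest of its group.

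Of the transcription factors, Spdef acts late in the maturation of goblet cells (chr17:27714352-27728955, minus strand). Normalized counts of Spdef were 2857, 3239 and 2484 in CD24negTomato+ and 647, 1069.8 and 808 in Tomatoneg libraries. Its level was 3.45-fold higher in CD24negTomato+ cells (log2 difference 1.79 ± 0.26 (SE), limma adjusted P = 0.0233). This was the smallest fold of the 10 genes in CD24negTomato+ cells, and the groups still did not overlap. For CD24+Tomato+ cells Spdef was at 4290.3, 5796 and 5854, with 707, 1111 and 860.2 in Tomatoneg of that table. The level was 5.99-fold higher (log2 difference 2.58 ± 0.25 (SE), limma adjusted P = 0.00236). CD24+Tomato+ replicates 2 and 3 were nearly equal and above replicate 1. With equal library totals its CD24negTomato+ adjusted P was 0.0555 (over all alternatives 0.00805 to 0.171).

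Atoh1 encodes the basic helix-loop-helix factor at the head of the secretory lineages (chr6:64729125-64731245, plus strand). In CD24negTomato+ replicates Atoh1 read 2789, 2714 and 1668 normalized counts, against 540.0, 569 and 437 in Tomatoneg. The fitted rise was 4.54-fold (log2 difference 2.18 ± 0.28 (SE), limma adjusted P = 0.0164). CD24negTomato+ replicates 1 and 2 were close and replicate 3 lower, as for Clca1 and Zg16. In CD24+Tomato+ replicates it read 2998, 2546 and 2648, against 582, 582 and 458 in Tomatoneg of that table. This rise was 5.06-fold (log2 difference 2.34 ± 0.21 (SE), limma adjusted P = 0.00187). In CD24+Tomato+ cells the libraries lay close together.

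**Figure D2:**
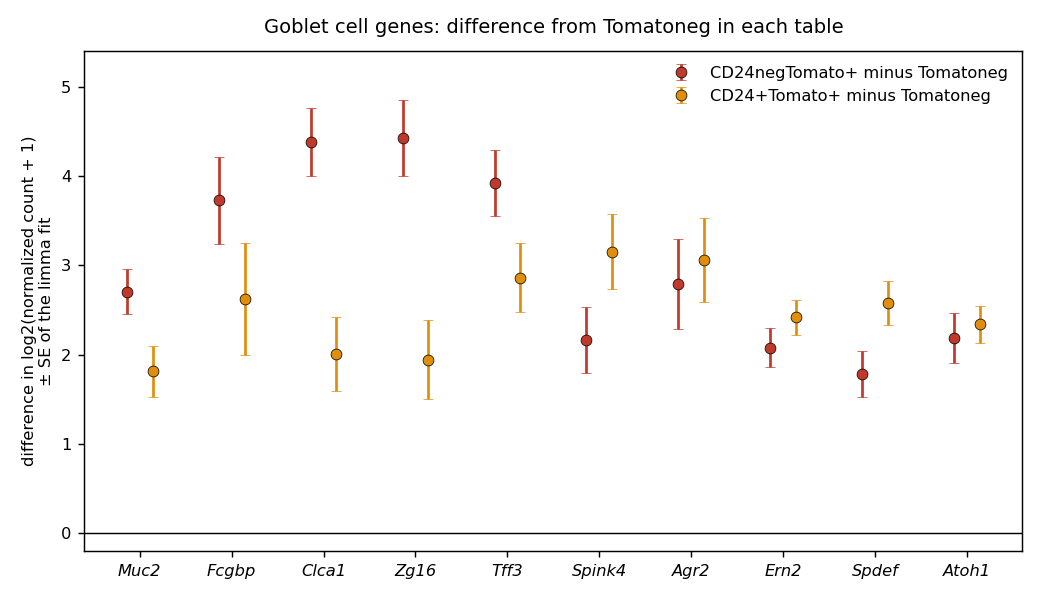
Difference of each gene from Tomatoneg in log2(normalized count + 1), with the SE of the limma fit, in CD24negTomato+ (red) and CD24+Tomato+ cells (orange), 3 libraries against 3 in each. All 20 points lie above 0, from 1.79 for Spdef to 4.43 for Zg16 in CD24negTomato+ cells and from 1.81 for Muc2 to 3.15 for Spink4 in CD24+Tomato+ cells.

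The order of the 10 genes by fold differed between the comparisons, which share their Tomatoneg libraries. In CD24negTomato+ cells it ran Zg16, Clca1, Tff3, Fcgbp, Agr2, Muc2, Atoh1, Spink4, Ern2 and Spdef, so 2 proteins secreted with the gel led, and the stress sensor and Spdef came last. In CD24+Tomato+ cells it ran Spink4, Agr2, Tff3, Fcgbp, Spdef, Ern2, Atoh1, Clca1, Zg16 and Muc2. Zg16 was 21.5-fold higher in the first comparison and 3.85-fold in the second, and Clca1 20.9-fold and 4.02-fold. Spink4 was 4.48-fold higher in the first and 8.9-fold in the second, and Spdef 3.45-fold and 5.99-fold. The folds of Atoh1, 4.54 and 5.06, differed by less than their errors. Neighbours in either order mostly lay within their SE of each other, such as Zg16 and Clca1 in CD24negTomato+ cells. These differences between the populations were not tested, since no deposited table holds both.

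As CPM, each gene's normalized count scaled to a library total of 1000000, a measure that depends little on how a table was scaled, the Tomato+ populations can be set side by side. Fcgbp, Clca1, Tff3 and Zg16 were higher in every CD24negTomato+ library than in every CD24+Tomato+ library, 4 of the 10 genes, as were 11.3% of the 13239 genes tested in both tables. Spink4, Spdef and Ern2 were higher in every CD24+Tomato+ library, 3 of the 10 genes, and 34.3% of all genes lay that way too, so that share of the 10 is near the background. Zg16 was at 30070.3, 30530.5 and 15570.5 CPM in CD24negTomato+ replicates 1, 2 and 3 and 9057, 3833 and 3632 in CD24+Tomato+ replicates. Spdef was at 101, 118 and 81.9 CPM in CD24negTomato+ and 189.9, 211 and 203 in CD24+Tomato+ replicates. The populations overlapped in Muc2, Agr2 and Atoh1. Between the tables, the CPM of the same Tomatoneg libraries differed by at most 1.14% for 9 of the genes and by 7.05% for Fcgbp, so the gap in Fcgbp (lowest CD24negTomato+ 34805, highest CD24+Tomato+ 25937 CPM) was larger than that shift.

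Together the 10 genes took 8.62% ± 1.65 (SD, n = 3) of the normalized counts of CD24negTomato+ libraries, 4.26% ± 0.567 of CD24+Tomato+ libraries and 0.705% ± 0.177 of Tomatoneg libraries. Within this pool the share of Fcgbp overlapped between the populations, with 46.2% ± 7.32, 52.9% ± 5.51 and 49.4% ± 8.61 in CD24negTomato+, CD24+Tomato+ and Tomatoneg cells. Zg16 held 29.0% ± 6.24, 12.6% ± 5.68 and 20.2% ± 9.89, with the Tomatoneg libraries overlapping both Tomato+ populations. Spink4 and Agr2 shares lay lower in each CD24negTomato+ library than in each CD24+Tomato+ library: Spink4 held 1.9% ± 0.594 and 8.91% ± 3.18, and Agr2 3.49% ± 1.08 and 9.62% ± 2.13. The factors and the sensor were a smaller part of the pool in CD24negTomato+ cells than elsewhere: Spdef held 0.117% ± 0.00133 there, 0.481% ± 0.0909 in CD24+Tomato+ and 0.48% ± 0.0412 in Tomatoneg cells, without overlap of the CD24negTomato+ libraries with either. Spink4 was likewise below its Tomatoneg share (5.87% ± 1.04), as was Muc2 (0.330% ± 0.0257 against 0.717% ± 0.0841). The shares of a library add up to the whole pool, so a share can be smaller where the level is higher. These shares are a description with no test. Long transcripts give more reads, and dividing by the longest GENCODE model changed the order of the genes. Per length, Zg16 held 53.0% ± 7.54 of the CD24negTomato+ pool, Tff3 23.4% ± 3.52 and Fcgbp 7.85% ± 1.88. Per length, Spink4 held 28.3% ± 8.75 of the CD24+Tomato+ pool, Tff3 24.8% ± 2.55 and Zg16 22.3% ± 10.5, which overlap within their SD.

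**Figure D3:**
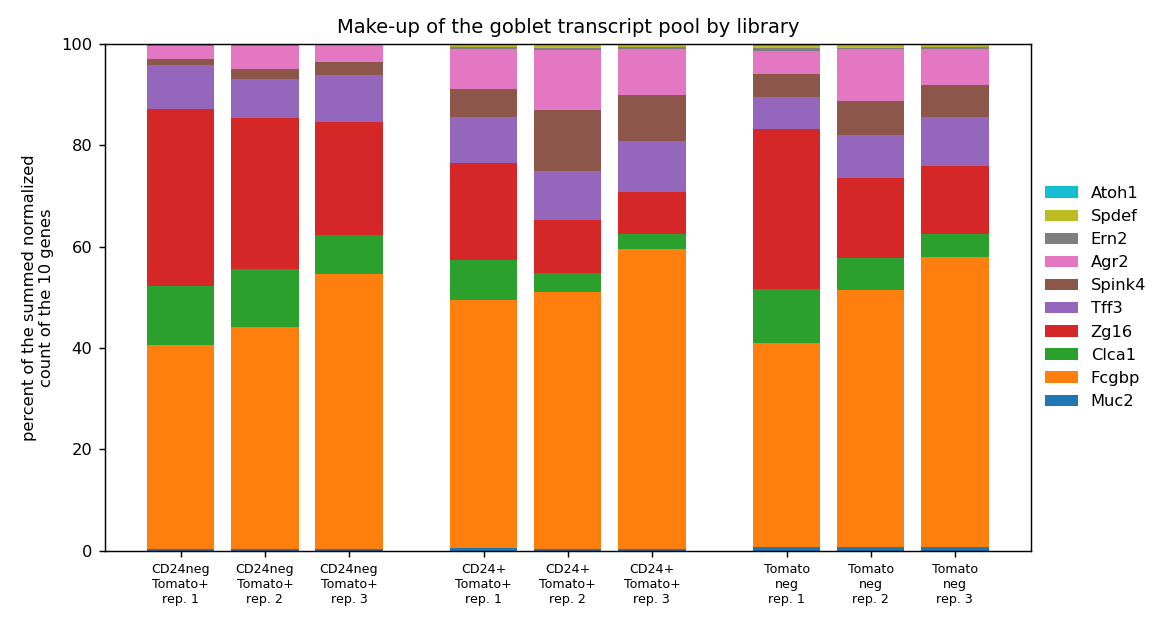
Share of each gene in the summed normalized count of the 10 goblet cell genes, by library, with the Tomatoneg libraries from the CD24negTomato+ table. Zg16 and Clca1 fill more of each CD24negTomato+ bar than of the CD24+Tomato+ bar with the same replicate number, while Spink4 and Agr2 fill less.

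The genes also differed in how they varied between replicates. Zg16 and Clca1 on one side, and Spink4 and Agr2 on the other, moved apart in replicate 1 of all 3 populations, a pattern chosen after its values were seen. The ratio of Zg16 to Spink4 was 26.6, 15.8 and 8.96 in CD24negTomato+ replicates 1, 2 and 3, 3.39, 0.879 and 0.909 in CD24+Tomato+ replicates and 6.76, 2.41 and 2.09 in Tomatoneg replicates. The ratio of Clca1 to Agr2 was 4.62, 2.44 and 2.31, 1.02, 0.309 and 0.33 and 2.34, 0.622 and 0.648 in the same order. Within every replicate number, CD24negTomato+ had the highest and CD24+Tomato+ the lowest of the 3 ratios, in both pairs of genes. Replicate 1 also held the highest summed level of the 10 enterocyte markers in each population, 25175, 10717 and 11230.1 CPM in CD24negTomato+, 5654, 1561 and 1289 in CD24+Tomato+ and 30153, 9574 and 8670.4 in Tomatoneg replicates 1, 2 and 3, and the lowest level of the 10 Paneth cell markers. The part of these markers in the ratios was not tested.

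**Figure D4:**
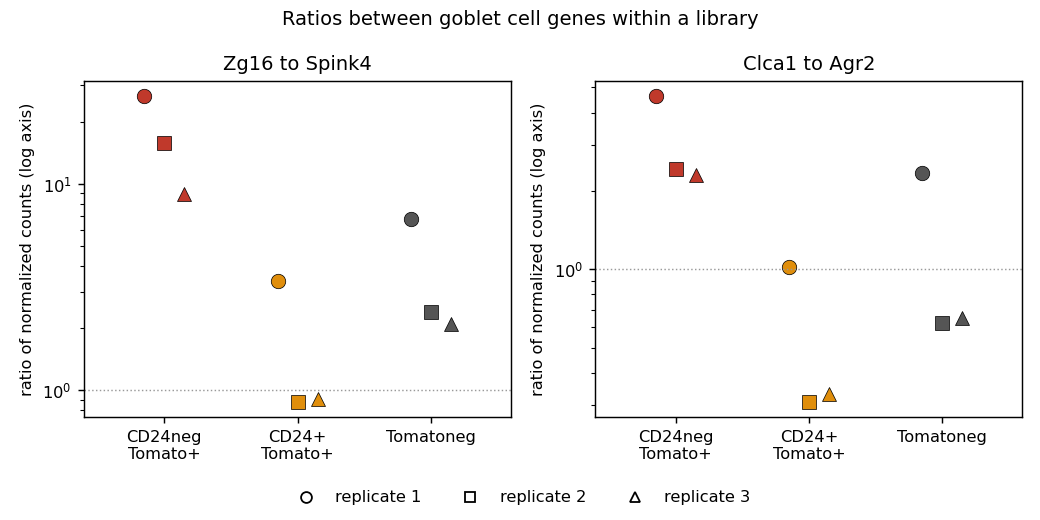
Ratio of the normalized counts of Zg16 to Spink4 (left) and Clca1 to Agr2 (right) within each library, on a log axis, by population and replicate. Dotted lines mark a ratio of 1. Replicate 1 (circles) is the highest in each population, and CD24negTomato+ replicate 1 the highest of the 9 libraries, at 26.6 and 4.62.

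Few close relatives of the 10 genes passed the adjusted threshold of the main fit. Of 10 paralogs tested in CD24negTomato+ cells 0 passed with limma. Their median log2 difference was 1.196, beside 0.0796 over all genes. In 6 of 10 every CD24negTomato+ library lay above every Tomatoneg library, as in 14.7% of all genes. At an unadjusted P under 0.05, 5 were higher and 1 lower, where 10.3% of all genes were higher and 6.82% lower. With the replicate block 3 were higher and 1 lower, where 4.34% of all genes passed as higher and 2.96% as lower. Of 10 tested in CD24+Tomato+ cells 1 was higher and 1 lower, where 8.02% and 4.89% of all genes were, and the median was -0.313. At an unadjusted P under 0.05, 2 were higher and 4 lower there, where 16.3% and 11.5% of all genes were. With the block 1 was higher and 2 lower, where 10.8% and 9.95% of all genes were. Agr3, the paralog of Agr2, read 370, 586 and 214 normalized counts in CD24negTomato+ and 355, 275 and 90.9 in CD24+Tomato+ replicates 1, 2 and 3. In the Tomatoneg libraries it was at 0 in replicate 1, at or under 3 reads in replicate 3 (1.05 and 1.10 in the tables) and at 31.2 and 31.9 in replicate 2 (adjusted P = 0.0593 and 0.036). Ern1, the IRE1 form expressed in most cells, gave log2 differences of 0.38 and 0.48 with adjusted P of 0.397 and 0.25, beside 2.08 and 2.42 for Ern2. Spink1, another Kazal-type inhibitor, fell in CD24+Tomato+ cells (1386 ± 276 against 5252 ± 256, SD, n = 3; log2 difference -1.94 ± 0.21 (SE), limma adjusted P = 0.00355), where Spink4 rose. Of the Clca genes other than Clca1, Clca4b was at 16471 ± 6699 against 11873 ± 11183 in CD24negTomato+ cells (SD, n = 3, adjusted P = 0.55) and Clca3b at 11289 ± 4314 against 15059 ± 7021 in CD24+Tomato+ cells (adjusted P = 0.682).

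Of 20 other genes known as enriched in goblet cells, 11 rose in CD24negTomato+ cells and 18 in CD24+Tomato+ cells, where 0.999% and 8.02% of all genes did. In either, 0 fell (limma, also 0 at an unadjusted P under 0.05). With the replicate block 18 and 20 rose, where 4.34% and 10.8% of all genes did. Their median log2 differences were 2.42 and 2.57. Rep15, which binds the recycling GTPase Rab15, rose in both, from 347 ± 98.3 to 2482 ± 611 normalized counts in CD24negTomato+ (SD, n = 3; log2 difference 2.85 ± 0.32 (SE), limma adjusted P = 0.0109) and 7.64-fold in CD24+Tomato+ cells (limma adjusted P = 0.00187). Bcas1 rose 8.18-fold (adjusted P = 0.0109) and Tspan13 3.51-fold (adjusted P = 0.0126) in CD24negTomato+ cells. Guca2a, the precursor of the gut hormone guanylin, rose 5.08-fold in CD24+Tomato+ cells (adjusted P = 0.00318). The chemokine Ccl9 rose 6.47-fold in CD24+Tomato+ cells (adjusted P = 0.00172) and gave a log2 difference of -0.47 in CD24negTomato+ cells (adjusted P = 0.395). Ccl6 was 30644 ± 4558 against 5245 ± 3264 in CD24negTomato+ cells (SD, n = 3, adjusted P = 0.0631, and 0.0183 with the block), and the actin-severing protein gene Scin 5155 ± 2308 against 3215 ± 1833 in CD24+Tomato+ cells (adjusted P = 0.333, and 0.0164 with the block).

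Mucins are built by enzymes that attach and extend O-linked sugars, and these genes moved as a smaller share. Of 28 tested, 3 rose in CD24negTomato+ cells and 9 in CD24+Tomato+ cells, where 0.999% and 8.02% of all genes did. In either, 0 fell (limma, with 0 and 4 lower at an unadjusted P under 0.05, where 6.82% and 11.5% of all genes were). Their median log2 differences were 0.708 and 0.767. With the replicate block 11 rose in the first comparison, where 4.34% of all genes did. In the second 16 rose and 3 fell, where 10.8% and 9.95% of all genes did, so the falls are near the background. Gcnt3, which makes the core 2 and core 4 branches of mucin glycans, rose 4.36-fold (adjusted P = 0.0109) and 3.1-fold (adjusted P = 0.00592). The GalNAc transferases that start the chains differed among themselves. Galnt12 rose 4.11-fold (adjusted P = 0.0212) and 5.94-fold (adjusted P = 0.00257), and Galnt5 rose 13.2-fold in CD24negTomato+ cells (adjusted P = 0.0232). Galnt6 was the most abundant of the enzymes not past the threshold, with log2 differences of 0.54 and 0.22 (adjusted P = 0.249 and 0.553). The sialyltransferase St3gal1 rose 3.61-fold in CD24+Tomato+ cells (adjusted P = 0.00429) and gave a log2 difference of -0.33 in CD24negTomato+ cells (adjusted P = 0.646).

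Of 18 folding partners in the endoplasmic reticulum, 2 rose in CD24negTomato+ and 8 in CD24+Tomato+ cells, where 0.999% and 8.02% of all genes did. In either, 0 fell (limma, also at an unadjusted P under 0.05). With the block 6 and 13 rose, where 4.34% and 10.8% of all genes did. Txndc5, a disulfide isomerase, rose 3.07-fold (adjusted P = 0.0477) and 4.1-fold (adjusted P = 0.00871). Kdelr3, a receptor that returns proteins to the reticulum, rose 3.76-fold in CD24negTomato+ cells (adjusted P = 0.0349). The sulfhydryl oxidase Qsox1 rose 6.2-fold (adjusted P = 0.00614) and Pdia5 3.86-fold (adjusted P = 0.00726) in CD24+Tomato+ cells. P4hb, an isomerase used by most secretory cells, was abundant in all populations and gave log2 differences of -0.02 and -0.45 (adjusted P = 0.984 and 0.532).

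Among 19 other transcription factors and Notch pathway genes of the secretory lineages, 0 passed in CD24negTomato+ cells with limma, while Atoh1 and Spdef did. At an unadjusted P under 0.05, 9 of the 19 were higher and 2 lower, where 10.3% and 6.82% of all genes were, and with the block 7 rose, where 4.34% of all genes did. In CD24+Tomato+ cells 13 rose, where 8.02% of all genes did, and 0 fell (limma, also 0 lower at an unadjusted P under 0.05). Creb3l1, a membrane-bound factor of secretory cells, rose 4.99-fold (adjusted P = 0.00172) and the Notch ligand Dll4 4.64-fold (adjusted P = 0.00288) in CD24+Tomato+ cells. Neurog3, the progenitor factor whose promoter drives the Cre, read 1319, 1345 and 1364 in CD24+Tomato+ against 102, 149 and 182 in Tomatoneg replicates 1, 2 and 3 (log2 difference 3.25 ± 0.31 (SE), limma adjusted P = 0.00231). In CD24negTomato+ libraries it read 14.6, 19.6 and 41.2 against 80.2, 123.4 and 147 (adjusted P = 0.126). Elf3 was the most abundant factor not past the threshold, with log2 differences of -0.21 and -0.07 (adjusted P = 0.768 and 0.91).

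The genes that release or process mucus after secretion did not rise as the goblet cell genes did. Of 12 tested, 1 rose and 0 fell in CD24negTomato+ cells (limma, also 0 lower at an unadjusted P under 0.05), and 1 rose and 3 fell in CD24+Tomato+ cells. Over all genes 0.999% rose and 0.32% fell in the first comparison, and 8.02% and 4.89% in the second, so its 1 rise is near the background. With the block 2 rose and 1 fell, and 3 rose and 5 fell. The shares over all genes were then 4.34% and 2.96%, and 10.8% and 9.95%. Rab27a, a GTPase of secretory granules, rose 10.3-fold (adjusted P = 0.0091) and 6.81-fold (adjusted P = 0.00348). Mep1b, a subunit of the brush-border protease meprin that cleaves Muc2, fell in CD24+Tomato+ cells from 15392 ± 5646 to 2323 ± 1322 (SD, n = 3, log2 difference -2.81, adjusted P = 0.0096). Nlrp6 fell there too (log2 difference -1.83, adjusted P = 0.0072), and Mep1a, named after its values were seen, was the third that fell. In CD24negTomato+ cells Mep1b was at 17391 ± 4061 against 14598 ± 5024 (adjusted P = 0.679). The transglutaminase Tgm2 gave a log2 difference of -0.83 in CD24+Tomato+ cells (adjusted P = 0.126, and 0.00712 with the block). All 10 enterocyte markers had lower means in CD24+Tomato+ than in Tomatoneg cells, 7 of them past the threshold, with a summed level of 1289 to 5654 against 8625 to 29896 CPM, and their part in the falls of the brush-border genes was not tested.

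Of the other mucins, 4 could be tested in CD24negTomato+ and 5 in CD24+Tomato+ cells, since Muc5ac, Muc5b, Muc15 and Muc16 had means under 10 normalized counts in both tables and Muc20 in the first. Muc3a rose in both, 4.03-fold (adjusted P = 0.0091) and 3.09-fold (adjusted P = 0.00592), and it is a close relative of Muc3, so reads may be split between them. Muc3, a membrane mucin of the brush border, fell in CD24+Tomato+ cells (log2 difference -2.09, adjusted P = 0.0366). Muc20 read 30.4, 58.9 and 96.9 in CD24+Tomato+ and 0, 7.78 and 1.12 in Tomatoneg replicates 1, 2 and 3 (adjusted P = 0.038). Muc13, a membrane mucin, gave log2 differences of 0.75 (adjusted P = 0.298) and -0.36 (adjusted P = 0.541).

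**Figure D5:**
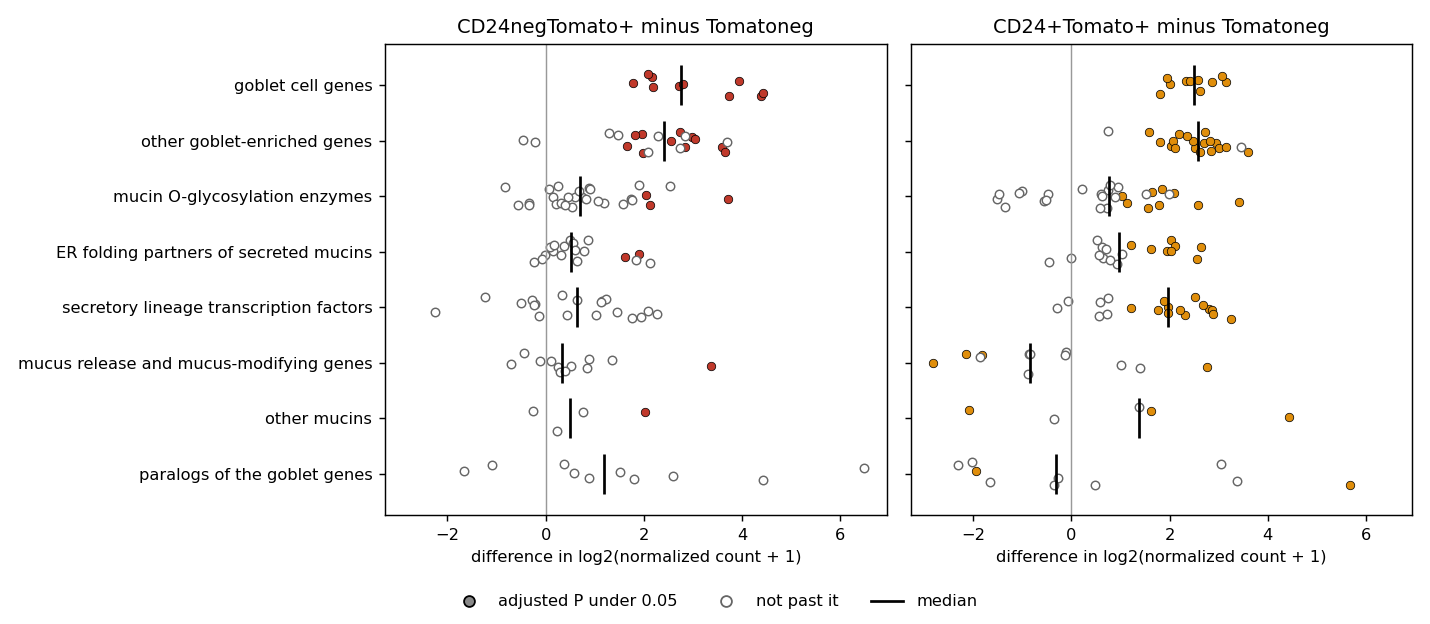
Difference from Tomatoneg in log2(normalized count + 1) for each tested gene of the goblet cell genes and 7 related lists. Filled points passed the adjusted P of 0.05, open points did not, and lines mark medians. The goblet cell genes and the other goblet-enriched genes have medians of 2.75 and 2.42 in CD24negTomato+ cells and 2.499 and 2.57 in CD24+Tomato+ cells.

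Goblet cell genes were not the only lineage genes that moved with the sort. Over all genes, 0.999% rose and 0.32% fell in CD24negTomato+ cells with limma, and 8.02% and 4.89% in CD24+Tomato+ cells. With the block these shares were 4.34% and 2.96%, and 10.8% and 9.95%. At an unadjusted P under 0.05 they were 10.3% and 6.82%, and 16.3% and 11.5%. All 10 Paneth cell markers rose in CD24+Tomato+ cells, with a summed level of 22958 to 84696 CPM against 1653 to 6820 in Tomatoneg libraries, while 0 of 10 passed in CD24negTomato+ cells with limma (7 were lower at an unadjusted P under 0.05, where 6.82% of all genes were, and 6 with the block, where 2.96% were), at 710 to 1775 against 1650 to 6807 CPM. Of 10 enteroendocrine markers 5 rose in CD24negTomato+ and 10 in CD24+Tomato+ cells. They summed to 2804 to 5244 CPM against 112 to 344 in Tomatoneg libraries, and to 6147 to 12253 against 112 to 343. The median log2 differences of these markers were 3.94 and 5.41, larger than the 2.75 and 2.499 of the goblet cell genes. With the block 8 rose in CD24negTomato+ cells, and Sst, the somatostatin gene, was lower (log2 difference -2.34, adjusted P = 0.0134, and 0.187 without the block). Of 8 tuft cell markers 7 rose in CD24+Tomato+ cells, and of 6 tested in CD24negTomato+ cells 2 fell, or 5 with the block. Of 10 enterocyte markers 0 passed in CD24negTomato+ cells with limma (1 was higher at an unadjusted P under 0.05), and 1 rose with the block. Of 8 stem cell markers 1 fell in CD24negTomato+ cells (3 with the block, and 6 were lower at an unadjusted P under 0.05), and 0 passed with limma in CD24+Tomato+ cells, where 1 was higher at an unadjusted P under 0.05 and 2 rose with the block. Lymphocyte markers were lower in Tomato+ cells, with 3 and 8 of 10 past the threshold (7 and 9 with the block), at 22.4 to 41.1 and 15.6 to 23.6 CPM, against 113 to 478 in Tomatoneg libraries. Of the acinar markers 0 of 9 passed in CD24negTomato+ cells with limma (1 was higher at an unadjusted P under 0.05), and the list summed to 55.4 to 84.4 against 27.3 to 49.9997 CPM in Tomatoneg libraries. In CD24+Tomato+ cells they summed to 259 to 631 against 28.2 to 51.2 CPM, and 10 of 10 had positive log2 differences with a median of 3.321. At an unadjusted P under 0.05, 5 were higher, and 1, Clps, passed (2 with the block). That 1 of 10 is near the share of all genes that rose there. The 1 enterocyte and 1 acinar marker higher at an unadjusted P in CD24negTomato+ cells were also near the share over all genes. So was the 1 stem cell marker in CD24+Tomato+ cells. No list had a marker at 0 in every library of a group except Il25 of the tuft list in CD24negTomato+ cells. Spdef, Atoh1 and Agr2 are also active in Paneth cells or their progenitors, and the paper lists Spink4 and Muc2 as Paneth/goblet lineage markers. The part of other cell types in the level of any of the 10 genes was not tested.

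Genes outside the list whose values were most like the mean log2 level of the 10 genes over the 6 libraries of a table were taken by Pearson correlation. In the CD24negTomato+ table they were Ghrl, Rap1gap, Gcnt3, Gnao1 and Cck, with r of 0.997 to 0.999 (n = 6 libraries). In the CD24+Tomato+ table they were Ghr, Fhl2, Rasa4, Trpm5 and Avil, with r of 0.997 to 0.9996. Ghrl and Cck are hormone genes of enteroendocrine cells, Gcnt3 is a mucin glycosylation enzyme, and Trpm5 and Avil are tuft cell genes. No gene was in both sets. The points fall into 2 groups of 3 libraries, so r mainly reflects the step between the groups and says little on each library. Of the members themselves, Muc2 (r = 0.999) was nearest to the mean in the first table and Atoh1 and Spdef (r = 0.989 each) in the second, and Spink4 (r = 0.953) and Clca1 (r = 0.909) were farthest.

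Promoter sequence was at hand for 5 of the 10 genes, Muc2, Fcgbp, Agr2, Spdef and Atoh1 (RefSeq, GRCm38.p6), and is shown because these genes rose together. The 250 bases before the start were searched on both strands for the E-box form CAGCTG, which basic helix-loop-helix factors bind, and its variant CAGATG, for the forkhead core TGTTTAC, for the caudal-type form TTTATGG, for the ETS form CCGGAT, and for the TATA form TATAAA. The first, CAGCTG, reads alike on both strands and occurred in 2 of the 5 (Muc2, 112 bases before the start, and Fcgbp, 208 bases before it), and in 12.8% of all 27025 promoters. TTTATGG occurred in Agr2 only, 48 bases before the start on the opposite strand, and in 2.45% of all promoters. TATAAA occurred in Muc2 only, 174 bases before the start, and in 13.0% of all promoters. None of the 5 held CAGATG, which is in 14.5% of all promoters, nor TGTTTAC, which is in 3.09%, nor CCGGAT, which is in 4.90%, and the windows of Atoh1 and Spdef held none of the 6 forms. The matches do not overlap one another. A match is a string of letters and not a site shown to be bound. The 3 windows with a match run from 5′ to 3′ on the plus strand, with matched letters in capitals, at chr7:141690090-141690339, chr7:28070986-28071235 and chr12:35992675-35992924.
Muc2: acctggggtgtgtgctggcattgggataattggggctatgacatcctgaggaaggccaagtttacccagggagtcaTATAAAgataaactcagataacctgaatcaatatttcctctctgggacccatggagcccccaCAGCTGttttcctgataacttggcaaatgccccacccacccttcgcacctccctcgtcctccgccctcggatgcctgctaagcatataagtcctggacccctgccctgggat
Fcgbp: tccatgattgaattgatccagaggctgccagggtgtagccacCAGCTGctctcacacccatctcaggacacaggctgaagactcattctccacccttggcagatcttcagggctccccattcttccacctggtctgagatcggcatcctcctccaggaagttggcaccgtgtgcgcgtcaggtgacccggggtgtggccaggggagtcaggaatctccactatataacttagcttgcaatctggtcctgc
Agr2: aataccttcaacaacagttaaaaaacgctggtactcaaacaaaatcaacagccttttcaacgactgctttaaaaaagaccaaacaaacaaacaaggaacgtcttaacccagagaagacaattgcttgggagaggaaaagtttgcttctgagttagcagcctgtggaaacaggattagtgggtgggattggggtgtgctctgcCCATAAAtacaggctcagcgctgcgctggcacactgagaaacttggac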

How the data were processed

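The authors sorted the cells by fluorescence, prepared poly-A libraries and sequenced them. Per the submitters' processing notes, reads were converted with bcl2fastq 2.19 and pseudoaligned to GRCm38 with kallisto 0.44.0. The deposited values are a signal made by the authors, estimated gene counts normalized with DESeq2 in 2 tables of 6 libraries, and their annotation is not given in the sources used here. Between the tables, values of the shared Tomatoneg libraries differed by median ratios of 1.08, 1.02 and 1.05 in replicates 1, 2 and 3, and 16.8% to 18.5% of genes lay over 5% from that median, so scaling was not 1 factor a library.

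Genes were tested where their mean over the 6 libraries reached 10, with limma 3.58.1 (trend) in R 4.3.3 on log2(normalized count + 1), and two-sided P values were adjusted over all genes tested by the Benjamini-Hochberg method (threshold 0.05). Tests stayed within a table. The most common low value of a library was taken as 1 read to estimate depth. Replicate numbers come from the sample titles. Deviations from the group means of same-numbered libraries correlated in every pair (r = 0.18 to 0.375). The main fit did not use this pairing, so its P values are unpaired. A block on the replicate number was run as an alternative. The 10 genes, the 7 related lists and the 7 marker lists were chosen with earlier results of these data known. Named genes are the 10, and from each related list and comparison the 3 with the smallest adjusted P and the most abundant that did not pass. Also named are the 5 most like the 10 in each table and the marker genes that moved with a group. Further alternatives were pseudocounts of 0.1 and 10, no filter, a mean of at least 50, equal library totals, quantile normalization, no variance trend, a log2 limit of 1, and each library left out.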

Additional observations from a re-analysis of the deposited data

Results flagged for a closer look

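The log2 differences of Neurog3 and Spink1 had opposite signs in CD24negTomato+ and CD24+Tomato+ cells, with all 3 Tomato+ libraries of a comparison on one side of the 3 Tomatoneg libraries. Marker genes shared this trait. In CD24negTomato+ cells 5 of 10 Paneth markers, 6 of 6 tuft markers tested and Sst lay below every Tomatoneg library. The share of all genes that lay below in this way was not counted. At an unadjusted P under 0.05 (limma), 7 Paneth and 6 tuft markers were lower there, where 6.82% of all genes were. In CD24+Tomato+ cells all 10 Paneth, 8 tuft and 10 enteroendocrine markers, Sst among them, lay above every Tomatoneg library. Of all genes tested there, 21.6% lay above as well. How many of all genes had opposite signs in this way was not counted, so Neurog3 and Spink1 stand without a background. Whether the comparisons differ was not tested. Neurog3, the progenitor factor, gave a log2 difference from Tomatoneg of -2.26 in CD24negTomato+ cells (limma adjusted P = 0.126) and of 3.25 in CD24+Tomato+ cells (adjusted P = 0.00231). Spink1, a Kazal-type relative of Spink4, gave 0.568 in CD24negTomato+ cells (adjusted P = 0.229) and -1.938 in CD24+Tomato+ cells (adjusted P = 0.00355). None of the 10 goblet cell genes showed opposite directions.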

How the results depend on the processing

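Every one of the 10 goblet cell genes stayed higher in both Tomato+ populations under all 9 settings on 6 libraries and with each library left out, with log2 differences of 1.586 to 4.704 in CD24negTomato+ and 1.536 to 3.474 in CD24+Tomato+ cells. In each of the 10 genes the groups did not overlap. Leaving a library out or changing the pseudocount, filter, trend, block or log2 limit therefore could not turn a sign. Only equal library totals and quantile normalization could have done so. The number past the threshold varied. In CD24negTomato+ cells it was 7 with no filter (Fcgbp, Spink4 and Agr2 lost), 7 with equal library totals (Spink4, Agr2 and Spdef lost), 8 with a pseudocount of 0.1 or without the variance trend, and 4 to 10 with 1 library left out. In CD24+Tomato+ cells it was 9 with a pseudocount of 0.1, 9 with quantile normalization, and 5 to 10 with 1 library left out. Equal library totals moved the median of all genes from 0.0796 to -0.12 in CD24negTomato+ cells, and quantile normalization from 0.160 to -0.017 in CD24+Tomato+ cells.

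Genes of the 7 related lists past the threshold numbered 18 in CD24negTomato+ cells, 31 with a pseudocount of 10, 31 with quantile normalization, 51 with the replicate block, and 0 to 40 with 1 library left out (0 without CD24negTomato+ replicate 1 or 2, 5 without replicate 3 and 40 without Tomatoneg replicate 1). They numbered 57 in CD24+Tomato+ cells and 17 to 60 with 1 library left out (17 without CD24+Tomato+ replicate 2 and 26 without replicate 3). The cause was not tested. Over all genes, calls in CD24negTomato+ cells rose from 134 higher and 43 lower to 582 and 397 with the block, 314 and 101 with a pseudocount of 10, 304 and 190 with quantile normalization, 196 and 95 without the variance trend and 617 and 442 without Tomatoneg replicate 1. They were 93 and 19 with a pseudocount of 0.1, 126 and 28 with no filter, and 17 and 1 without CD24negTomato+ replicate 2. The 1113 higher and 678 lower of CD24+Tomato+ cells became 1504 and 1381 with the block, 731 and 544 with a pseudocount of 0.1, 991 and 1036 with quantile normalization, 1043 and 429 without the trend, and 127 and 41 without CD24+Tomato+ replicate 2. The block changed no call of the 10 genes in either comparison. With 3 libraries a group, leaving 1 out also lowers the power. The median of the paralogs in CD24+Tomato+ cells turned from -0.313 to 0.306 with no filter.

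Divided by transcript length, Fcgbp fell from 46.2% to 7.853% of the CD24negTomato+ pool and from 52.9% to 8.557% of the CD24+Tomato+ pool, and Zg16 rose from 29.0% to 53.02% and from 12.6% to 22.35%.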
